A study of Mus musculus with 6 samples.

Results

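The 4 Hox clusters of the mouse were followed through the open chromatin of the posterior second heart field (pSHF) and the atria (HT) of the embryo. The members were 38 Hox genes, taken by symbol: 10 of the Hoxa cluster, 10 of Hoxb, 9 of Hoxc and 9 of Hoxd. A peak belonged to a cluster where its summit lay within 10 kb of a member or between the outermost members of the cluster, which gave 62 peaks of 93285 in all. Of these, 35 came from the 44018 peaks of the pSHF list and 27 from the 49267 peaks of the HT list. Each peak was given to the member with the nearest start. In the mm10 build, the windows so defined ran from 52152417 to 52270880 on chromosome 6 (Hoxa), from 96184316 to 96378254 on chromosome 11 (Hoxb), from 102911131 to 103046856 on chromosome 15 (Hoxc) and from 74658225 to 74775142 on chromosome 2 (Hoxd).

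Open chromatin was measured by ATAC-seq, in which the Tn5 transposase cuts accessible DNA and adds sequencing adapters to it. Both groups were wild-type CD1 embryos at day 10.0 of development, with no transgene, mutation or treatment, and differed only in the tissue taken: the pSHF, a progenitor field behind the heart that supplies its venous pole, or the atria. The labels give 3 samples per tissue, each from tissue of pooled embryos. The analysed data are 1 peak list per tissue, with no value per sample, so no difference below could be set against the spread between samples and none was tested. In bulk tissue, a stronger peak from more cells of a type and a more open site in each cell cannot be told apart.

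Hox genes encode homeodomain transcription factors that give cells their position along the head-to-tail axis. Within a cluster the genes lie in the order of their paralog numbers, and in the embryo the low numbers are switched on earlier and reach farther towards the head than the high numbers. Retinoic acid activates the low-numbered genes, and Hoxb1 and Hoxa3 are known to be expressed in second heart field progenitors. Here paralogs 1 to 4 are called anterior (11 members), 5 to 8 central (11 members) and 9 to 13 posterior (16 members).

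The promoters below are shown because peaks lay over them in different lists, from both tissues to 1 tissue alone. Each is the 250 bases before the annotated start, from RefSeq on GRCm38.p6 (the assembly behind mm10), read 5′ to 3′ on the + strand, with bases under a peak of either list in capitals. Hoxd1 (chr2:74762730-74762979) and Hoxd10 (chr2:74691641-74691890) lay under peaks of both lists, Hoxd9 (chr2:74697513-74697762) under an HT peak alone, and Hoxd13 (chr2:74667975-74668224) and Hoxc4 (chr15:103034145-103034394) under a pSHF peak alone.
Hoxd1: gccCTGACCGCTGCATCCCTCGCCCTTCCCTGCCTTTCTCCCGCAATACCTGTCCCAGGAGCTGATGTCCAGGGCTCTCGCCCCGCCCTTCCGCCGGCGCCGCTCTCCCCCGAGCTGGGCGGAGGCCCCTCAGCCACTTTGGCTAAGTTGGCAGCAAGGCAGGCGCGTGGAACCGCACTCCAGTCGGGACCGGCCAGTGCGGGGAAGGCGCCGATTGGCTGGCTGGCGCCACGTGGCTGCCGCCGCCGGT
Hoxd10: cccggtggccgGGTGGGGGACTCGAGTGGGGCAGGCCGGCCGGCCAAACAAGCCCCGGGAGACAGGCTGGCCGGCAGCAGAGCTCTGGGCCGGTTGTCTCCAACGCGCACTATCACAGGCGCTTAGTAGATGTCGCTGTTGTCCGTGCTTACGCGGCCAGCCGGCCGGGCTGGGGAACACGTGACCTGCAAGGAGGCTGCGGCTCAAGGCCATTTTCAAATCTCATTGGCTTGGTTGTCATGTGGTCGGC
Hoxd9: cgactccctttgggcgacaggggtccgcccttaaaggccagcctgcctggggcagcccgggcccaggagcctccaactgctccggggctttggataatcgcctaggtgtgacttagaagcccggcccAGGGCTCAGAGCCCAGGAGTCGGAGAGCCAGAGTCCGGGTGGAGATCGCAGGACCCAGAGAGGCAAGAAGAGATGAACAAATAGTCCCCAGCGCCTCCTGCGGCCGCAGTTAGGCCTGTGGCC
Hoxd13: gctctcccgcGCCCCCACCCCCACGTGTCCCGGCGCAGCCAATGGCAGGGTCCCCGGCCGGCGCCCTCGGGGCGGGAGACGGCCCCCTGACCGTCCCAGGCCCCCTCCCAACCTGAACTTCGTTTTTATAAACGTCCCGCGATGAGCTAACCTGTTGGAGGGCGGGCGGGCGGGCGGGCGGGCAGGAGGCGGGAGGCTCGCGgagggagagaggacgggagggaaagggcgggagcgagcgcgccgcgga
Hoxc4: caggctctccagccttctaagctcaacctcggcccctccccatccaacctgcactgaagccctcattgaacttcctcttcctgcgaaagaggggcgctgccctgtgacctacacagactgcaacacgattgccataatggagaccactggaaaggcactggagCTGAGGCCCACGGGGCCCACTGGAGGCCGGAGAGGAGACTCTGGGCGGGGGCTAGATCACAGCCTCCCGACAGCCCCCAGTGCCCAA

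The 5 promoters shown were rich in G and C. The promoter table held 24 promoters of 22 members, and 8 of them had at least 1 base under a peak. Over these 8, GC content ran from 46.4% in Hoxa2 to 80.0% in Hoxa13. In the sequences shown it ran from 62.0% in Hoxc4 through 65.2% in Hoxd9, 65.6% in Hoxd10 and 71.6% in Hoxd1 to 74.4% in Hoxd13. The median was 65.4% GC with 22 CpG dinucleotides over the 8 promoters under a peak, and 53.4% with 11 over the 16 without. Over all 21045 protein-coding promoters it was 55.6% with 10. The members of both kinds are few, and these medians were not tested.

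Short motifs were counted on both strands of the 250 bases, each on its own, also where matches of different motifs overlap. CCAAT, the box bound by NF-Y, was in 14 of the 24 member promoters (58.3%) against 35.6% of all promoters. In the sequences above it lay on the minus strand 37 bases before the Hoxd1 start and 26 before the Hoxd10 start, and on the plus strand 212 bases before the Hoxd13 start, inside the capitals of all 3. Hoxd9 and Hoxc4 had no match. CCGCCC, bound by Sp and Klf factors, was in 41.7% of the member promoters and 43.1% of all, with 7 matches in Hoxd13. TGATNNAT, a site for Pbx with Hox partners, was in 4 of 24 (16.7%) against 6.62% of all, and TGACAG, a Meis site, in 2 of 24 (8.33% against 15.02%). The TATA box, searched as TATAAA, was in 4 of 24 against 11.7% of all. The Gata motif, searched as AGATAA and present in 8.84% of all promoters, had no match in the 24. The Gli motif, searched as TGGGTGGTC and present in 0.162% of all, had none either, nor had the retinoic acid response element with its pair of direct repeats spaced by 5 bases, present in 0.00475% of all.

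Per length of DNA, peaks were dense in the Hox clusters, and they were mostly weak. The clusters held 6.19 pSHF peaks and 4.78 HT peaks per 100 kb, against 1.72 and 1.92 over the genome. The 2 Iroquois clusters, homeobox genes that also lie in groups but far apart, held 1.43 and 1.70. Genes are also dense in the Hox clusters, with 10 in the 118 kb of Hoxa, against 3 each in the 902 and 1331 kb of the Iroquois clusters. Per Hox member there were 0.92 pSHF and 0.71 HT peaks. Peaks per gene were not counted over the genome, so a higher density than the number of genes would give is not claimed. Density in pSHF ran from 3.68 per 100 kb in Hoxc through 5.16 in Hoxb and 7.70 in Hoxd to 9.29 in Hoxa, and in HT from 3.68 in Hoxc through 4.13 in Hoxb and 5.06 in Hoxa to 6.84 in Hoxd. Hoxc thus had the same number of peaks in both lists, 5, while Hoxa had 11 in pSHF and 6 in HT.

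Peak strength is given as the authors' fold enrichment of reads at the summit over the local background. The Hox peaks had a median fold enrichment of 4.22 in pSHF (3.04 to 6.13) and 4.45 in HT (3.19 to 8.90), where the medians of the whole lists were 4.85 and 5.49. Only 10 of 35 pSHF peaks and 7 of 27 HT peaks stood above the median of their list, and 0 and 1 above its upper quartile. The median summit pileup, the number of reads stacked at the summit, was 12 in pSHF (8 to 27) and 9 in HT (5 to 19). Broad peaks with more than 1 summit made up 3 of 35 pSHF peaks and 1 of 27 HT peaks, where such peaks were 24.2% and 16.3% of the whole lists.

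**Figure D1:**
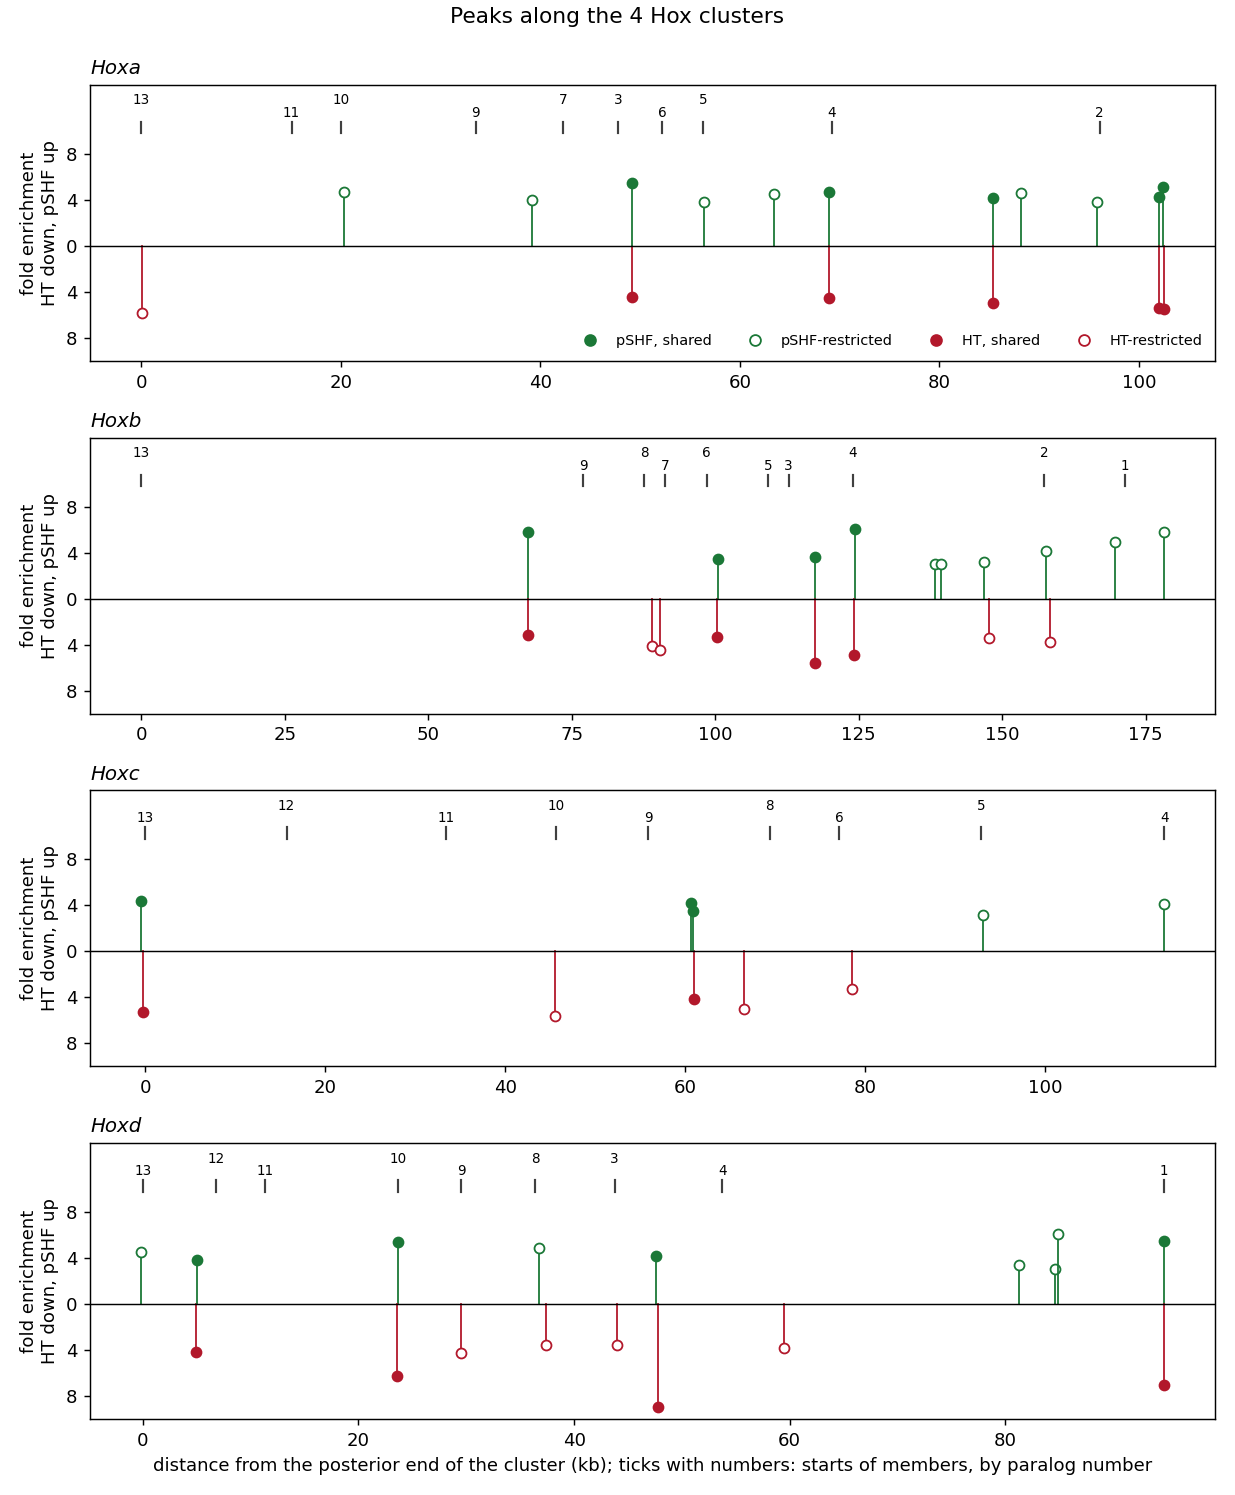
Fold enrichment of the 62 peaks along the Hoxa, Hoxb, Hoxc and Hoxd clusters, plotted against distance from the posterior end of each cluster (kb). pSHF peaks point up and HT peaks down, filled where the peak overlaps a peak of the other list and open where it does not. The highest pSHF value, 6.13, is an open symbol near Hoxd1 and the highest HT value, 8.90, a filled symbol in Hoxd3.

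The starts of the Hox genes often carried a peak in 1 tissue alone. A start counted as occupied where a summit lay within 1 kb of it. The starts of 6 of the 38 members (15.8%) were occupied in both lists, 7 in pSHF alone, 5 in HT alone and 20 in neither. Over 17274 protein-coding genes, 59.3% were occupied in both, 2.08% in pSHF alone, 2.6% in HT alone and 36.0% in neither. The members occupied in both lists were Hoxa4, Hoxb4, Hoxc13, Hoxd1, Hoxd8 and Hoxd10. Hoxd8 counts here through a different peak in each list, a pSHF peak 346 bp past its start and an HT peak 999 bp past it, which do not overlap. Those in pSHF alone were Hoxa2, Hoxa5, Hoxa10, Hoxb2, Hoxc4, Hoxc5 and Hoxd13, and those in HT alone Hoxa13, Hoxb7, Hoxc10, Hoxd3 and Hoxd9. An occupied start in at least 1 list was found at 7 of 11 anterior members, 4 of 11 central members and 7 of 16 posterior members.

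The paralog groups differed in this respect. Paralog group 10 was the one group of 3 or more members with an occupied start at every member. These were Hoxd10 in both lists, Hoxa10 in pSHF and Hoxc10 in HT. Hoxa10 has 2 annotated starts, and only the outer one was occupied. Both members of group 2, Hoxa2 and Hoxb2, were occupied in pSHF alone, although an HT peak lay 1050 bp past the Hoxb2 start, just beyond the 1 kb limit. Groups 6, 11 and 12 had no occupied start, and group 11, whose members pattern the forearm, kidney and uterus, had no peak nearest to any member in either list. Starts of 22 members came from the promoter table and those of the other 16 from the 5′ end of the gene in the gene table, which for Hoxb3 and other genes with long transcripts is that of the outermost one. Among the 22 with a promoter-table start, 4 were occupied in both lists, 5 in pSHF alone, 3 in HT alone and 10 in neither.

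**Figure D2:**
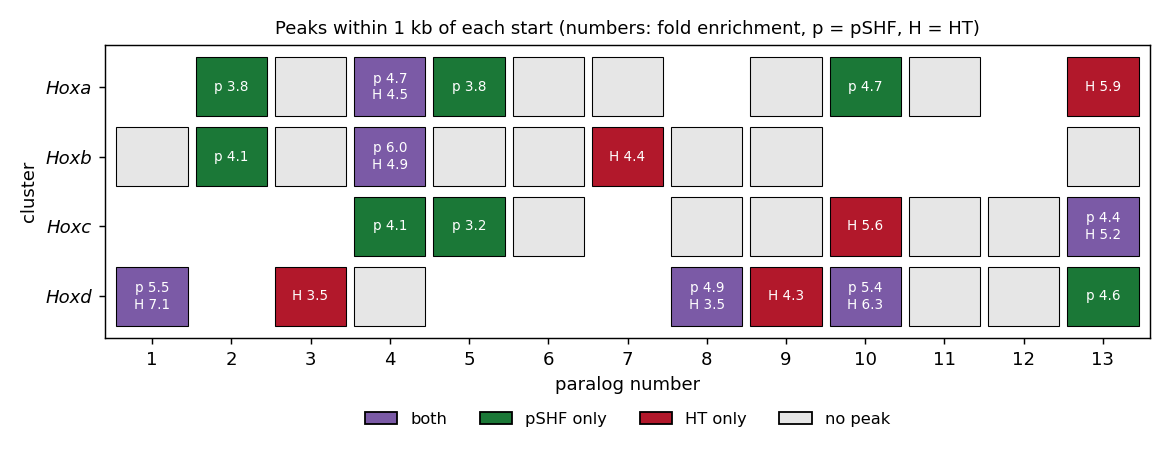
Start class of each of the 38 members, with the paralog number along one axis and the cluster along the other. Colours show a summit within 1 kb of the start in both lists (6 members), pSHF alone (7), HT alone (5) or neither (20).

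A peak with no overlap of at least 1 bp with a peak of the other list is called restricted here, and shared otherwise, so a restricted site was not called in the other tissue and may still be open there. In the Hox clusters 19 of 35 pSHF peaks were restricted (54.3%, exact Clopper-Pearson 95% interval 36.6 to 71.2), against 34.4% of all pSHF peaks. In HT it was 12 of 27 (44.4%, 25.5 to 64.7) against 45.5%. Among all peaks with a fold enrichment within the range of the Hox peaks, 45.8% in pSHF and 54.2% in HT were restricted, so the intervals of both lists held the share of peaks of like strength. All intervals here cover counting error only.

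Most pSHF peaks, restricted or not, were nearest to anterior members. These had 22 of the 35 pSHF peaks and 13 of the 19 restricted ones, against 13 of the 27 HT peaks and 4 of the 12 restricted ones. Nearest to central members, 4 peaks were restricted to pSHF and 5 to HT, and nearest to posterior members 2 and 3. The length of DNA nearest to the members of each region was not measured, so these are counts and not densities. The pSHF share of the anterior restricted peaks was 76.5% (exact interval 50.1 to 93.2), where 40.3% of all restricted peaks were from pSHF. The intervals of the central (44.4%, 13.7 to 78.8) and posterior share (40.0%, 5.27 to 85.3) overlapped that of the anterior share, and the difference between them was not tested. By cluster, the anterior restricted peaks numbered 3 in pSHF and 0 in HT in Hoxa, 6 and 2 in Hoxb, 1 and 0 in Hoxc, and 3 and 2 in Hoxd. At a −log10 q of at least 5 for the restricted peak, 4 pSHF peaks were left, all nearest to anterior members, and 2 HT peaks, both nearest to posterior members.

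**Figure D3:**
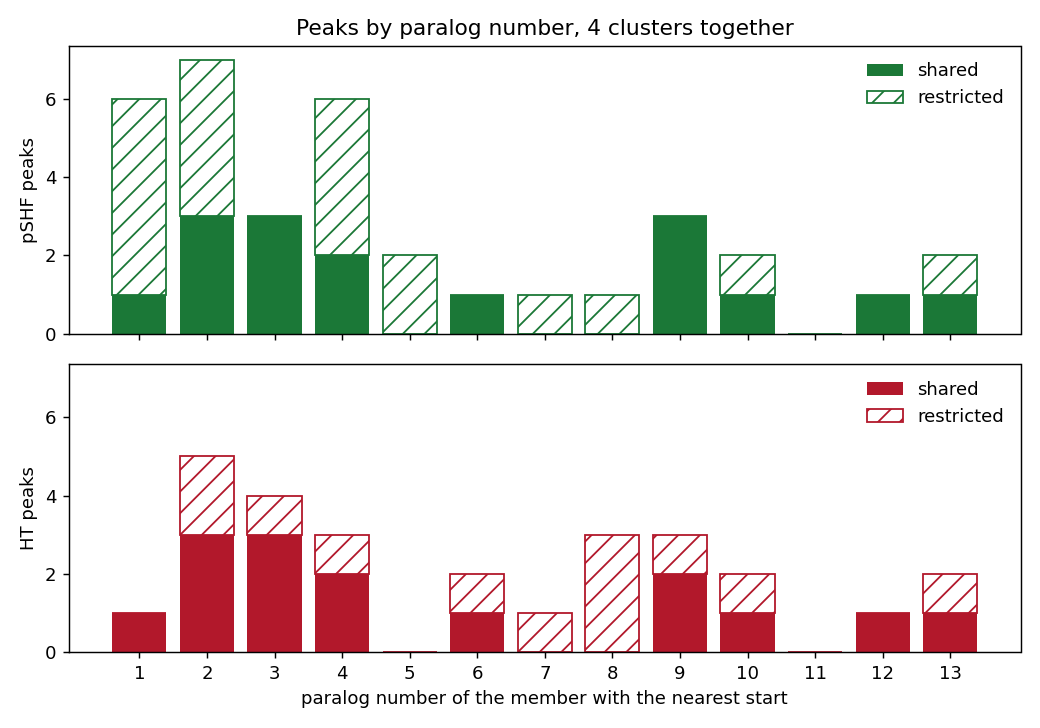
Number of peaks nearest to the members of each paralog number (1 to 13), in pSHF and HT, with each bar divided into shared and restricted peaks. Paralog 1 has 6 pSHF peaks and 1 HT peak, and paralog 11 has 0 in both. Peaks are assigned by nearest start. By nearest gene body, not plotted, paralog 1 has 3 pSHF peaks and 1 HT peak. Paralog 3 then has 13 and 7, against 3 and 4 by nearest start.

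Among the anterior members, by nearest start, Hoxb1 and Hoxd1 had the strongest peaks found in pSHF alone. Hoxb1, which sets the identity of a hindbrain segment and acts in second heart field progenitors, had no HT peak nearest to it. Its pSHF peaks lay 1725 bp before the start (chromosome 11, 96363655 to 96364151, fold 4.97, 16 reads) and 6827 bp past it (96372479 to 96372884, fold 5.78, 14 reads). Hoxd1, known in sensory neurons that report pain, had 3 pSHF-restricted peaks before its start, at 9822, 10098 and 13495 bp. The nearest of these, at 74753054 to 74753404 on chromosome 2, was the strongest pSHF peak of the 4 clusters, with a fold of 6.13, 17 reads and a −log10 q of 8.48, and lay 474 bp from the start of Gm14424. The farther of them had fold values of 3.05 and 3.45. By nearest gene body all 3 went to Hoxd3, which then had 4 pSHF peaks, and Hoxd1 had 1. At the Hoxd1 start itself both lists had a peak, with a fold of 5.47 in pSHF and 7.06 in HT from 13 and 14 reads.

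Hoxa2, which gives the second pharyngeal arch its identity, had the most peaks of any member by nearest start, 5 in pSHF and 3 in HT. By nearest gene body it had 3 and 2, and Hoxa3 had the most, 5 and 3. A pSHF-restricted peak at the Hoxa2 start had a fold of 3.84 from 16 reads. Another, 7878 bp before the start and inside Hoxa3 (chromosome 6, 52172509 to 52172892), held 27 reads, the highest pileup of the 62 peaks, at a fold of 4.58, and lay 172 bp from the start of Gm15050. The other peaks assigned to Hoxa2 were shared, and the pair past its 3′ end at 52158291 to 52158568 had a fold of 5.15 in pSHF and 5.49 in HT. The neighbouring pair, at 52158742 to 52159073, had 4.27 and 5.36. Hoxb2, a hindbrain gene, had 2 restricted peaks in each list. Its pSHF peak at the start, 370 bp past it, had a fold of 4.13 from 16 reads, and its HT peak at 1050 bp a fold of 3.75 from 9 reads. Its other peaks lay inside Hoxb3, with a fold of 3.23 in pSHF and 3.43 in HT, and did not overlap.

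Hoxa3, needed for the thymus and parathyroid, had 1 shared pair, with a fold of 5.45 in pSHF, the highest pSHF value of the Hoxa cluster, and 4.45 in HT. The pair of Hoxb3 had a fold of 3.62 in pSHF and 5.55 in HT, the latter the highest HT value of the Hoxb cluster. Hoxd3, which patterns the uppermost vertebrae, had the strongest HT peak of all 4 clusters, at 74715858 to 74716112 on chromosome 2, with a fold of 8.90, 19 reads and a −log10 q of 13.98. The pSHF peak it overlapped had a fold of 4.22 from 9 reads. That HT summit lay 150 bp from the start of the antisense transcript Hoxd3os1, and an HT-restricted peak of fold 3.52 lay 216 bp past the Hoxd3 start.

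The group 4 genes, which pattern the neck vertebrae, had a start peak in pSHF at 3 of 4 members. Hoxb4, also known from blood stem cells, had the strongest pSHF peak of the Hoxb cluster 410 bp past its start (96318497 to 96318783), with a fold of 6.02 from 22 reads, beside 4.87 from 11 reads in HT. Past it, 14437 and 15439 bp from the start and inside Hoxb3, were pSHF-restricted peaks of fold 3.05 and 3.04, among the weakest of the pSHF peaks here. At Hoxa4 the values were 4.68 from 14 reads in pSHF and 4.52 from 9 in HT, and a further pSHF-restricted peak of fold 4.52 lay 5754 bp before the start. The Hoxa4 and Hoxb4 start peaks were thus in both lists. Hoxc4 had a pSHF peak alone, 10 bp before the start, with a fold of 4.12 from 11 reads, and Hoxd4 an HT peak alone, 5701 bp past the start, with a fold of 3.79 from 6 reads.

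Of the central members, 4 had pSHF peaks at fold values from 3.15 to 4.87 that no HT peak overlapped. Hoxa5, needed for the lung and airway, had one 95 bp past its start with a fold of 3.84 from 12 reads, and Hoxc5 one 282 bp past its start with a fold of 3.15 from 9 reads. Hoxd8 had the highest of these, 4.87 from 11 reads, and Hoxa7 a fold of 4.01 at 3171 bp before its start. In HT alone, Hoxb7 had a peak 893 bp before the start (fold 4.43, 9 reads), Hoxb8, which acts in myeloid progenitors, one 1332 bp past it (4.14, 9 reads), Hoxc8 one 2908 bp before it (4.96, 9 reads) and Hoxc6 one 1440 bp past it (3.22, 6 reads). The HT peak of Hoxd8 had a fold of 3.54 from 7 reads and lay 13 bp from the start of Gm38462. Hoxb6 had the one shared pair of the central members, with 3.49 in pSHF and 3.29 in HT, and Hoxa6 and Hoxb5 had no peak nearest to them.

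Of the 16 posterior members, which pattern the trunk, limbs and tail, 7 had an occupied start and 9 had none. Hoxd10, known in hindlimb motor neurons, had a start peak in both lists with a fold of 5.37 in pSHF and 6.26 in HT, from 14 and 12 reads. Hoxc13, a hair follicle gene, had one in both at 4.38 and 5.24 from 10 reads each, and the pSHF value was the highest of the Hoxc cluster in that list. In HT alone, Hoxa13, a gene of the digits and hindgut, had a peak 76 bp past its start (chromosome 6, 52260718 to 52260918) with a fold of 5.85 from 13 reads, the strongest HT peak of the Hoxa cluster. Hoxc10, of lumbar motor neurons, had one 193 bp before its start (chromosome 15, 102966478 to 102966687) with a fold of 5.58 from 11 reads, the strongest HT peak of Hoxc, and Hoxd9 one 14 bp before it at 4.28 from 8 reads. In pSHF alone, Hoxd13, a digit gene, had a peak 144 bp before its start at 4.55 from 10 reads. Hoxa10, of the uterus, had one in pSHF alone 266 bp past its outer start, at 4.71 from 10 reads. The remaining posterior members had shared peaks away from their starts or no nearest peak. Hoxc9, of thoracic motor neurons, had 2 pSHF peaks of fold 4.22 and 3.52 that both overlapped 1 HT peak of fold 4.12, and Hoxd12 a pair with 3.87 in pSHF and 4.16 in HT. Hoxb9 had a pair 9669 bp before its start, given with the pairs. Hoxa9, Hoxa11, Hoxb13, Hoxc11, Hoxc12 and Hoxd11 had none.

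Some stretches inside the clusters held no summit of either list. Such stretches were not measured over the genome, where peaks lay at 1.72 per 100 kb in pSHF and 1.92 in HT. Those of the clusters are therefore not called unusual. The longest ran 67.3 kb from Hoxb13, a gene of the prostate and tail, to a summit before Hoxb9, 38.7% of the Hoxb cluster. In Hoxc 45.5 kb from the start of Hoxc13 held the starts of Hoxc12 and Hoxc11 and no summit. The longest such stretches were 20.2 kb in Hoxa, with the Hoxa11 start and the outer Hoxa10 start inside it, and 21.8 kb in Hoxd, between Hoxd4 and Hoxd1. Beyond the 10 kb limit, the nearest peaks left out were a pSHF-restricted peak 11.7 kb from Hoxa2 (fold 5.66) and a shared pair 12.2 kb from Hoxd13 (3.62 in pSHF, 3.45 in HT). The outermost peak kept on the Hoxb1 side lay 4.33 kb from it, with a fold of 5.78.

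Shared peaks were compared as pairs, each pSHF peak with the HT peak that it overlapped most and that in turn overlapped it most. The 15 Hox pairs had a median log2 ratio of fold enrichment, pSHF over HT, of −0.22, and all 26118 pairs of −0.29, so both medians lay on the HT side. Fold enrichment was higher in pSHF at 5 of 15 Hox pairs, where 23.9% of all pairs were. One pair, 9669 bp before the Hoxb9 start, was at least 1.5 times higher in pSHF, with 5.78 from 12 reads against 3.19 from 5 reads, where 2.35% of all pairs were. Pairs at least 1.5 times higher in HT numbered 2, those of Hoxd3 and Hoxb3 given above, where 22.2% of all pairs were. By counts of reads, the pileup was higher in pSHF at 10 of 15 Hox pairs, in HT at 4 and equal at 1, where 24.6% of all pairs were higher in pSHF. The median pileup ratio, pSHF over HT, was 1.27 in the Hox pairs and 0.8 in all pairs. For each of the 15 pairs the exact interval of the pileup ratio held 1. The interval of the Hoxd3 pair ran from 0.189 to 1.10 and that of the Hoxb9 pair from 0.787 to 8.70. No single pair's pileup ratio could thus be told from 1, with pileups not scaled for depth. The intervals of the Hoxb4 start pair (0.930 to 4.57) and the pair 10636 bp before the Hoxa2 start (0.962 to 4.39) lay above 0.8, the median of all pairs. All others held 0.8.

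**Figure D4:**
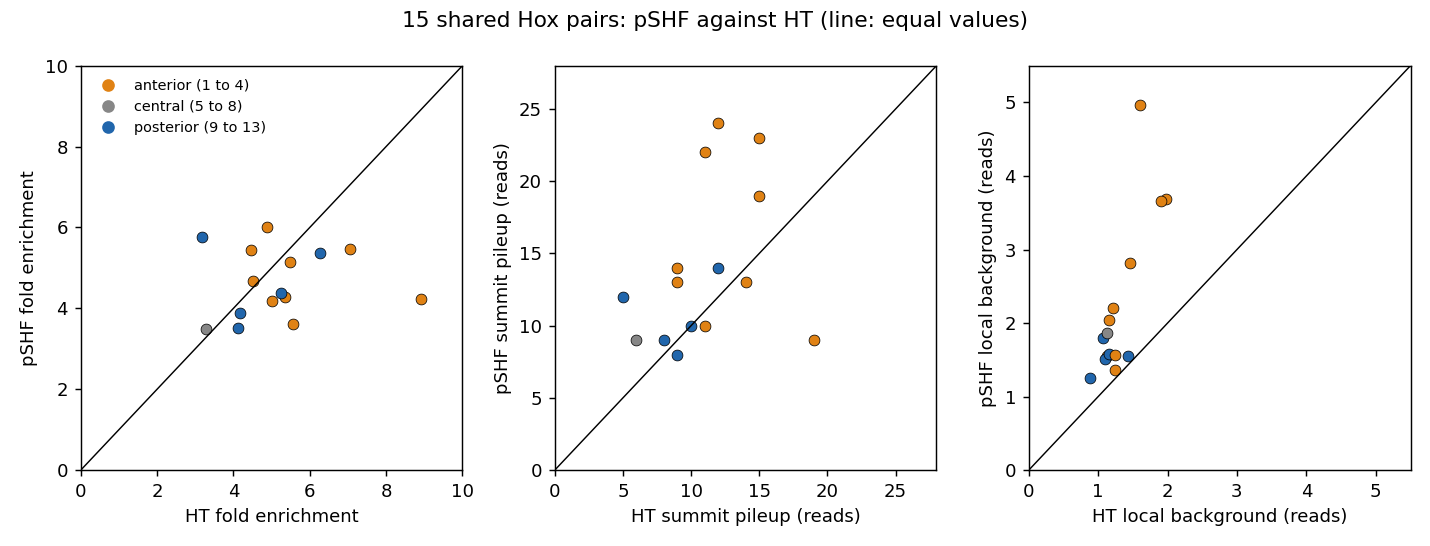
The 15 shared pairs of the Hox clusters in 3 panels, with the HT value on the horizontal and the pSHF value on the vertical axis: fold enrichment, summit pileup (reads) and local background (reads), coloured by region. On the line both values are equal. All 15 background points lie above it, 10 pileup points do, and 5 fold points do.

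The fold divides the pileup by the local background, and this background differed between the lists. It is the mean pileup that the peak caller used around a summit, recovered here from the deposited fold and −log10 p. The background was higher in pSHF at 15 of 15 Hox pairs, where 51.9% of all pairs were, and at least 1.5 times higher at 8 of 15, where 4.49% of all pairs were. In 0 of 15 it was at least 1.5 times higher in HT, as in 4.21% of all pairs. The median background ratio was 1.66 (1.09 to 3.11) in the Hox pairs and 1.01 in all pairs. It was 1.86 in Hoxa, 1.71 in Hoxb, 1.37 in Hoxd and 1.23 in Hoxc, and 1.82 in the 9 anterior against 1.37 in the 5 posterior pairs. In the Iroquois clusters it was 1.39, with 12 of 15 pairs higher in pSHF. Neighbouring summits can share the stretch from which a background is taken, so these pairs are not independent of each other. Whether reads of the peaks themselves add to the background was not tested.

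Along the clusters, the pSHF background, known here only at called peaks, was higher towards the anterior end. Its median was 2.28 reads at peaks nearest to anterior members, 1.99 at central and 1.53 at posterior members, against 1.27, 1.22 and 1.13 in HT and whole-list medians of 1.49 in pSHF and 1.29 in HT. The HT values of all 27 peaks lay between 0.847 and 1.98, and 17 of 35 pSHF peaks exceeded the highest of them, 14 of these nearest to anterior members. The highest pSHF backgrounds, from 3.42 to 5.11, were at the 5 peaks nearest to Hoxa2. At the pair 10636 bp before the Hoxa2 start the background was 4.97 in pSHF and 1.60 in HT, the pileup 24 and 12 reads, and the fold 4.19 and 5.01. At the Hoxb4 start it was 2.82 and 1.46, with 22 and 11 reads. The first of these sites thus had the lower fold in pSHF with more pSHF reads at the summit.

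**Figure D5:**
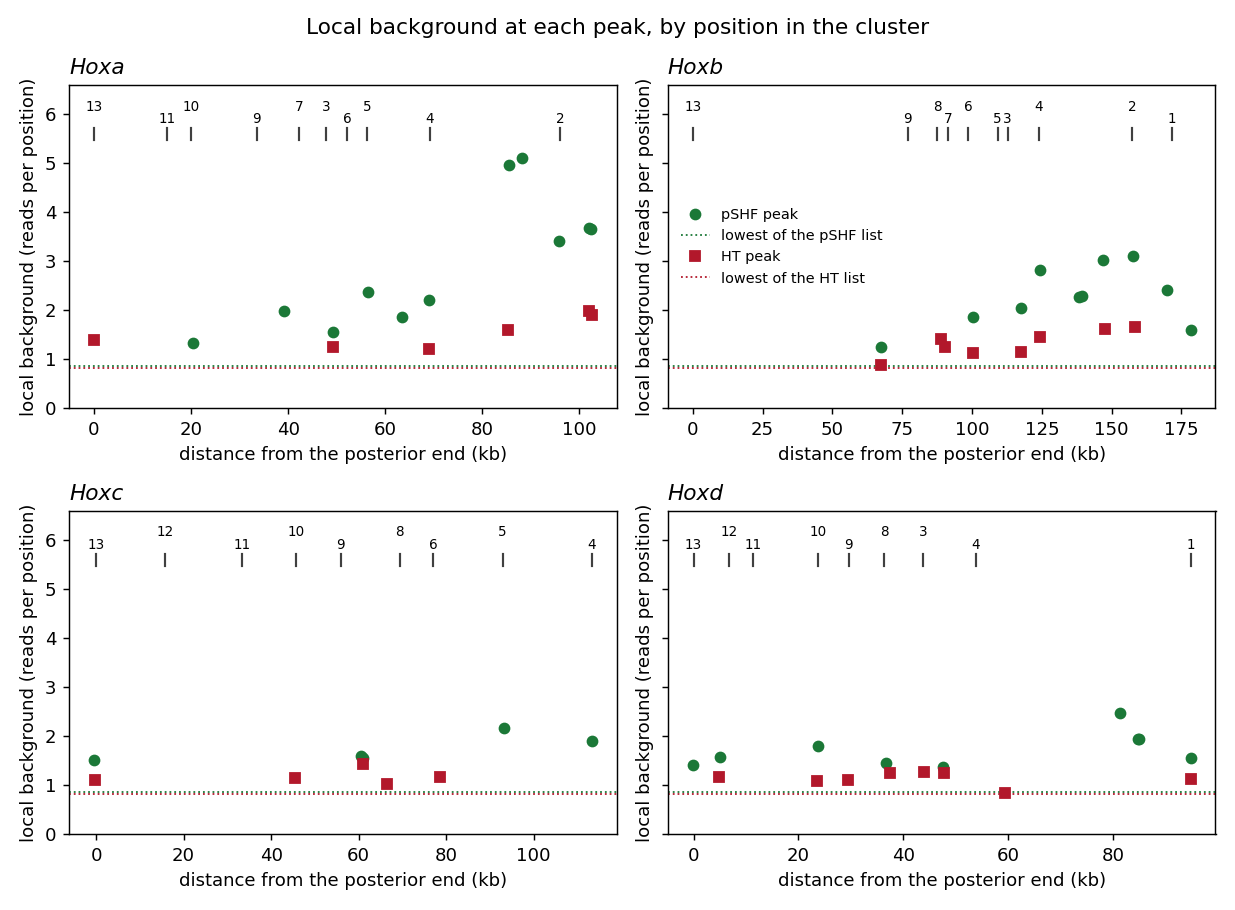
Local background (reads) at each of the 62 peaks along the 4 clusters, against distance from the posterior end (kb), for pSHF and HT. The pSHF points reach 5.11 at the anterior end of Hoxa, while the HT points stay between 0.847 and 1.98 in all 4 clusters.

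Genes that act with or upstream of Hox proteins were read by the restricted peaks within 10 kb of each. Of the genes for DNA-binding partners of Hox proteins, Meis1 had 2 pSHF-restricted and 9 HT-restricted peaks, and Meis2 had 5 and 8. Others differed by less or the other way, with 1 and 0 at Meis3 and 6 and 5 at Pknox2, and no tally of these genes is given. The 12 upstream regulators had 21 and 13, and none of them had more HT-restricted than pSHF-restricted peaks. Among them the retinoic acid receptor genes had 4 and 2 at Rara, 8 and 6 at Rarb, and 3 and 1 at Rarg, and Aldh1a2, which makes retinoic acid, had 2 and 0. Cyp26a1, which degrades retinoic acid, and Cdx4, an activator of posterior Hox genes, had no peak in either list. The 7 chromatin regulator genes had 1 and 2. Over both lists 40.3% of restricted peaks were from pSHF, as given above.

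Defining markers were read for the tissue labels and for other Hox-expressing cells. Over 17274 protein-coding genes, 59.3% had a summit within 1 kb of a start in both lists and 36.0% in neither. The share of all genes with a peak within 10 kb is not given here, so the counts of genes below stand without it. Of 7 cardiomyocyte genes 4 had pSHF peaks within 10 kb (not Nkx2-5, Ttn or Nppa) and 7 had HT peaks, with 2 pSHF-restricted and 23 HT-restricted peaks. All 6 genes of the second heart field and splanchnic mesoderm had peaks in both lists, with 7 pSHF-restricted and 15 HT-restricted peaks. The genes of this list differed. Tbx5 had 0 and 4, Gata4 2 and 4, and Hand2 1 and 6, whereas Foxf1 had 3 and 1, Isl1 1 and 0, and Osr1 0 and 0. The sum over this list therefore does not speak for each of its genes. Of 6 neural tube genes 5 had pSHF peaks (not Olig2) and 6 had HT peaks, with 3 pSHF-restricted and 7 HT-restricted peaks. Of 6 somite genes 4 had pSHF peaks (not Uncx or Myf5) and 5 had HT peaks (not Uncx), with 7 and 5 restricted peaks. Of 5 foregut endoderm genes 5 had pSHF peaks and 4 had HT peaks (not Shh), with 5 and 3 restricted peaks. Of 4 endothelial genes 3 had pSHF peaks (not Cdh5) and 4 had HT peaks, with 1 and 15 restricted peaks. Of 4 erythroid genes 3 had pSHF peaks (not Gata1) and 4 had HT peaks, with 0 and 12 restricted peaks. The part of such cells in the Hox peaks was not tested.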

How the data were processed

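ATAC-seq peaks of 6 samples (3 pSHF, 3 HT) were analysed from 1 deposited list per tissue. MACS2 2.1.1, Bowtie2 2.3.2, Picard and SAMtools 1.5 are the tools named in the submitters' processing notes, with the build mm10. Nothing in the sources used here gives their parameters or says whether samples were pooled for peak calling. Each line of the lists holds the authors' deposited score, fold enrichment (a ratio), −log10 p-value and −log10 q-value. The lists held 58887 (pSHF) and 60223 (HT) lines. Lines of equal interval were merged, keeping the summit of highest fold, into 44018 and 49267 peaks. Each whole list was searched for overlaps.

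The pileup and local background were recovered by taking the fold as (pileup + 1)/(background + 1) with a Poisson p, which a whole pileup matched within 0.01 on the log10 scale at 100% of peaks. Read totals per sample were not analysed here, so depth is given by pileup alone (list medians 11 in pSHF and 12 in HT). Overlap and pileup recovery were checked on simulated data. All shares carry exact 95% intervals that cover counting error only. Python 3.11.15, pandas 2.3.3 and SciPy 1.17.1 were used.

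Named are: the strongest peak of each list in each cluster, members with a start peak in 1 list alone, the 8 restricted peaks of highest fold of each list, the 5 pairs of largest fold ratio each way, the last occupied start and the 2 members with most peaks of each cluster, regulators that differ by 2 or more restricted peaks or have no peak, and defining markers with no peak. Other members are named to account for all of them. A regulator and a marker that the rule names are not reported here. The members and lists were chosen with earlier results of these data known. Alternatives varied the overlap, the q threshold, the windows, the assignment and the measure of strength.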

Additional observations from a re-analysis of the deposited data

How the results depend on the processing

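Of 51 recomputed values for 18 results, 34 stayed close to the reported value, 15 moved and 2 turned direction. This rule is loose: counts and densities were close up to a 1.5-fold change. The median log2 ratio was close anywhere within the quartiles of the 15 pairs, −0.29 to 0.066. With both lists at a −log10 q of at least 5, restricted peaks numbered 8 in pSHF and 5 in HT. With that limit on the restricted peak alone they numbered 4 and 2, of which 4 and 0 were nearest to anterior members. Without peaks near starts they numbered 11 and 6. At 50% reciprocal overlap, restricted peaks numbered 25 in pSHF and 17 in HT, of which 16 and 7 were nearest to anterior members. A start window of 2 kb gave 10 members occupied in both lists. At a −log10 q of at least 5, starts were occupied in both lists at 2 members, in pSHF alone at 2, in HT alone at 3 and in neither at 31. The median log2 ratio of fold turned from −0.22 to 0.066 when centred on all pairs, and to 0.34 with pileup in place of fold, an alternative chosen after seeing the data. That median was −0.022 at 50% reciprocal overlap (10 pairs) and −0.064 with −log10 p in place of fold, both counted as close. Among pairs at a −log10 q of at least 5 in both lists, 4 of 5 had a pSHF background at least 1.5 times higher, beside 8 of 15 of all Hox pairs. The alternatives for anterior restricted peaks, background and density were also chosen after seeing the data. No paired analysis was possible because each tissue has 1 peak list, and no sample could be left out for the same reason. Pileups of 5 to 27 reads limit every comparison of single peaks.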

Other observations

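The clusters also hold microRNA genes, looked at after the peaks had been seen. Members of the miR-10 family share 1 seed and those of the miR-196 family another, shown in capitals (bases 2 to 8) in the mature RefSeq sequences below.
miR-10a-5p: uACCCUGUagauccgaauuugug
miR-10b-5p: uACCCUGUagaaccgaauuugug
miR-196a-5p: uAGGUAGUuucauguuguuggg
miR-196b-5p: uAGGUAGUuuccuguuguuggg
Mir10a lies in Hoxb, and the nearest summits were those of the shared Hoxb4 start pair, 1403 bp away in pSHF (fold 6.02) and 1315 bp in HT (fold 4.87). Mir10b lies in Hoxd, where the nearest HT summit, of the HT-restricted peak in Hoxd4, was 1542 bp away (fold 3.79) and the nearest pSHF summit 10208 bp away. The nearest summits to Mir196a-1 were the Hoxb9 pair at 3503 bp in pSHF and 3499 bp in HT. Mir196a-2 in Hoxc had an HT-restricted summit at 6747 bp and a shared pSHF summit at 8331 bp. Mir196b in Hoxa had a pSHF-restricted summit at 8337 bp and none from HT within 10 kb. No summit of either list lay within 1 kb of any of these genes.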
